A study of Mus musculus with 12 samples.

Results

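The genes described here are 30 markers of Kupffer cells, of macrophages in general and of leukocytes, read in cultures of hepatocytes on a mouse whole-genome array. A gene was represented by its brightest probe, and 29 of the 30 genes had a probe whose RefSeq accession matched. No probe matched Cd68. Of the 29 genes, 26 were tested, among 19027 tested genes or accessions of 32970 on the array. Timd4, Itgam and Spi1 did not pass the filter, which asked that the 3 arrays of 1 or more groups all read the probe well above background. The list was split by role into 6 Kupffer cell genes (Clec4f, Timd4, Vsig4, Marco, Cd5l, Cd163), 12 macrophage genes (Adgre1, Csf1r, Cd68, Cd14, Mpeg1, C1qa, C1qb, C1qc, Lyz1, Lyz2, Slc11a1, Ctss) and 12 leukocyte genes (Ptprc, Itgam, Tyrobp, Fcer1g, Laptm5, Cd74, Cd52, Cybb, Spi1, Cd53, Lcp1, Coro1a).

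Kupffer cells are the resident macrophages of the liver. They line the sinusoids, take up particles and haemoglobin from the blood with scavenger receptors, and make complement C1q. Collagenase digestion of a liver frees them together with the hepatocytes, so that a hepatocyte culture can hold some of them. Their identity genes depend on the transcription factors PU.1 and LXR-alpha, and many are lost when the cells are kept outside the liver.

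The hepatocytes came from C57BL/6 mice that lacked PGC-1alpha (-/-) or carried it (+/+), and were infected at a multiplicity of 5 with an adenovirus for a hairpin RNA against TLS (shTLS) or for a control hairpin. PGC-1alpha is a coactivator of metabolic genes and TLS is an RNA-binding protein. The 4 groups, -/- shTLS, -/- control, +/+ shTLS and +/+ control, hold 3 arrays each. All cells carried an adenovirus, grew on collagen with dexamethasone and insulin, and were harvested 24 h after infection. Cells of each of the 6 mice received both hairpins, so both arrays of a mouse share an animal, and mouse number, assay number and slide are the same number. Each group always had the same position on the slides, so the effects of position and group cannot be separated. All values are the authors' quantile-normalized log2 signals, and a difference of 1 log2 unit is a 2-fold change of the signal. Sets of 3 values are those of mouse 1, 2 and 3 of a genotype.

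The markers of the labelled cell type were present. Of 12 listed hepatocyte genes, 10 had a probe, and these were above background on all 12 arrays, and Alb read 16.86, 16.96 and 17.19 in -/- shTLS cells, against 17.44, 16.94 and 17.03 in -/- control cells, and 17.55, 17.53 and 17.39 in +/+ shTLS cells, against 17.75, 17.55 and 17.19 in +/+ control cells. The probe of Ppargc1a read 8.67 to 9.71 on the 6 arrays of -/- cells, against 8.23 to 10.99 on the 6 of +/+ cells, so it does not show the deletion and checks nothing about the genotype labels. An array had 22753 to 26694 probes well above background. Before normalization, the signal's 75th percentile was 426 to 635 in -/- shTLS cells, against 831 to 1064 in -/- control cells. It was 344 to 568 in +/+ shTLS cells, against 810 to 974 in +/+ control cells. The shTLS arrays were thus dimmer before quantile normalization, and the part of this in the results was not tested.

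The promoters of the 5 Kupffer cell genes that passed the filter are shown because their mean differences between hairpins within mice, given below, were the widest of the list. Each window runs from 250 bases before to 50 bases after the start of the gene and is RefSeq sequence of GRCm38.p6, written 5′ to 3′ on the strand of the gene. The array files name an older build, so no position of a probe is given. Capitals mark GAGGAA or its reverse complement TTCCTC, the core of the site that PU.1 is known to bind.
Marco (chr1:120504975-120505274, minus strand): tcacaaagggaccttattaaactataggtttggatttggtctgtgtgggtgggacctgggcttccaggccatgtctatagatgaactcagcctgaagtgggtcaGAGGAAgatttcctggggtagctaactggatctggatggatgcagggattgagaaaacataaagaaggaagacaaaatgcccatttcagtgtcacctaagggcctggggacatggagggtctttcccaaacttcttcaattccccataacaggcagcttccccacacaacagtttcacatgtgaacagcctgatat
Vsig4 (chrX:96293389-96293688, minus strand): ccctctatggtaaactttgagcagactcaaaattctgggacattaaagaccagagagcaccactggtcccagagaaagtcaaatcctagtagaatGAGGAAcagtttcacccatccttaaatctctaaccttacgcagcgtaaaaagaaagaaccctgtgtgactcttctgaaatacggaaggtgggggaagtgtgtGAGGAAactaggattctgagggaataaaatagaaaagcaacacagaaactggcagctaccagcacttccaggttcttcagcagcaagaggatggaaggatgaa
Cd5l (chr3:87357631-87357930, plus strand): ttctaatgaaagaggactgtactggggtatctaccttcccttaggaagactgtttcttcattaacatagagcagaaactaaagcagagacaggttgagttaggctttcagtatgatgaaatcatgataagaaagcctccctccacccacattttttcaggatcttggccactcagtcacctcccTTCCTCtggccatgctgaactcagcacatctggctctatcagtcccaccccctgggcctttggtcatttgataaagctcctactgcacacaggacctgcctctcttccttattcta
Clec4f (chr6:83656067-83656366, minus strand): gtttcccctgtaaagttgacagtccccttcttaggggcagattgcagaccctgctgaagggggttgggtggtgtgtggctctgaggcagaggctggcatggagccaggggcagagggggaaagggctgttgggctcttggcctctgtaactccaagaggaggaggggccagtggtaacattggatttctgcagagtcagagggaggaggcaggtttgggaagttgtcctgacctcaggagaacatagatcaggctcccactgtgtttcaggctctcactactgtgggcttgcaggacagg
Cd163 (chr6:124304401-124304700, plus strand): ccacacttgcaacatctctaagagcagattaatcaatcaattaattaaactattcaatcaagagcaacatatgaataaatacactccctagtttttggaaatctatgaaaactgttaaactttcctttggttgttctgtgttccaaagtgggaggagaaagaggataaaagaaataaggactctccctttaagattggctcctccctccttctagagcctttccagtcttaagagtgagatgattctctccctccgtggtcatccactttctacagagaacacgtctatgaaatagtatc
The Vsig4 window held 2 matches, those of Marco and Cd5l 1 each, and those of Clec4f and Cd163 none. Over the list, 13 of the 22 genes with a promoter in the table held a match on either strand (59.1%), against 31.3% of 27025 genes with a promoter. A match is a run of letters in a window and says nothing of binding in these cells.

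Signal of the Kupffer cell genes differed widely between mice. Clec4f, Cd163, Vsig4 and Timd4 fell to background on some arrays, and their highest values were 10.73, 11.65, 10.87 and 4.71. Marco and Cd5l were above background on all 12 arrays, and Marco reached 15.43. Clec4f, a lectin made only by Kupffer cells in the mouse liver, read 9.60, 1.78 and 3.57 in -/- shTLS cells, against 10.73, 5.54 and 5.66 in -/- control cells, and 6.79, 1.32 and 2.51 in +/+ shTLS cells, against 8.43, 1.37 and 4.11 in +/+ control cells. Both arrays of mouse 1 were the highest of each genotype, and 4 arrays were not well above background: both of +/+ mouse 2 and the shTLS arrays of -/- mouse 2 and +/+ mouse 3. Cd163, the scavenger receptor for haemoglobin bound to haptoglobin, read 10.53, 5.87 and 4.51 in -/- shTLS cells, against 11.65, 10.27 and 5.86 in -/- control cells, and 7.78, 1.37 and 5.15 in +/+ shTLS cells, against 9.20, 4.03 and 7.30 in +/+ control cells. Its 2 arrays not above background were those of +/+ mouse 2. Vsig4, the complement receptor CRIg, read 9.90, 6.47 and 5.18 in -/- shTLS cells, against 10.87, 10.08 and 6.89 in -/- control cells, and 7.34, 3.04 and 4.52 in +/+ shTLS cells, against 8.92, 4.02 and 6.51 in +/+ control cells. Here too +/+ mouse 2 had both arrays below background, and the shTLS array was below the control array in each mouse.

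Marco, a scavenger receptor that binds bacteria and particles, read 13.39, 11.12 and 8.39 in -/- shTLS cells, against 15.17, 15.43 and 10.20 in -/- control cells, and 9.47, 9.28 and 7.93 in +/+ shTLS cells, against 11.94, 10.97 and 10.29 in +/+ control cells. All 12 arrays read it well above background, and its highest value was in -/- mouse 2, not in mouse 1. Cd5l, a secreted protein of tissue macrophages also known as AIM, read 11.42, 6.89 and 8.45 in -/- shTLS cells, against 12.80, 11.62 and 10.45 in -/- control cells, and 9.24, 6.00 and 7.23 in +/+ shTLS cells, against 10.50, 5.85 and 9.56 in +/+ control cells. +/+ mouse 2 held both of its lowest values. Timd4, the phosphatidylserine receptor Tim-4 of resident macrophages, read 3.54, 1.14 and 1.06 in -/- shTLS cells, against 4.71, 1.14 and 1.66 in -/- control cells, and 3.01, 1.15 and 1.17 in +/+ shTLS cells, against 3.58, 1.25 and 3.08 in +/+ control cells. It was above background on 2 arrays only, both of -/- mouse 1, and was not tested.

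The macrophage genes fell into sets that were high in different mice. The 3 chains of complement C1q, the recognition part of the classical pathway, followed the Kupffer cell genes in part. C1qa read 9.98, 7.18 and 6.28 in -/- shTLS cells, against 10.61, 9.70 and 7.13 in -/- control cells, and 7.93, 3.01 and 5.55 in +/+ shTLS cells, against 8.91, 3.54 and 6.63 in +/+ control cells. C1qb read 8.58, 6.83 and 6.79 in -/- shTLS cells, against 8.81, 8.53 and 6.45 in -/- control cells, and 6.85, 5.88 and 6.51 in +/+ shTLS cells, against 7.55, 5.44 and 6.14 in +/+ control cells. C1qc read 11.78, 8.77 and 8.07 in -/- shTLS cells, against 12.45, 11.23 and 8.85 in -/- control cells, and 9.87, 4.28 and 7.58 in +/+ shTLS cells, against 10.74, 5.52 and 8.25 in +/+ control cells. All 3 were highest in -/- mouse 1 and lowest in +/+ mouse 2, and C1qa was not above background on either array of that mouse. C1qb spanned 3.37 log2 units, C1qa 7.60 and C1qc 8.17.

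Adgre1, which encodes F4/80, read 9.22, 10.89 and 7.45 in -/- shTLS cells, against 9.68, 12.66 and 7.46 in -/- control cells, and 8.0, 9.10 and 7.20 in +/+ shTLS cells, against 8.73, 8.13 and 7.15 in +/+ control cells. It was highest in -/- mouse 2 with both hairpins, and mouse 2 was also above mouse 1 in +/+ shTLS cells. Csf1r, the receptor for CSF1 on which macrophages depend, read 6.65, 6.23 and 4.86 in -/- shTLS cells, against 7.55, 7.78 and 5.10 in -/- control cells, and 4.90, 6.93 and 4.69 in +/+ shTLS cells, against 6.48, 6.99 and 4.77 in +/+ control cells. In both genotypes mouse 3 was lowest, and +/+ mouse 2, at 6.93 and 6.99, was the highest of its genotype. Cd14, the co-receptor for bacterial lipopolysaccharide, read 12.16, 11.29 and 11.72 in -/- shTLS cells, against 12.27, 13.42 and 12.45 in -/- control cells, and 12.55, 10.25 and 11.82 in +/+ shTLS cells, against 12.08, 11.70 and 12.16 in +/+ control cells. All 12 of its values lay between 10.25 and 13.42, with the lowest in +/+ shTLS mouse 2 and the highest in -/- control mouse 2.

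Lyz2, the lysozyme of macrophages and granulocytes, read 12.32, 11.83 and 11.87 in -/- shTLS cells, against 12.87, 14.22 and 11.70 in -/- control cells, and 11.27, 11.47 and 11.86 in +/+ shTLS cells, against 11.93, 9.89 and 11.54 in +/+ control cells. Lyz1, its close copy and best known from Paneth cells, read 9.18, 8.78 and 8.99 in -/- shTLS cells, against 9.71, 11.21 and 8.68 in -/- control cells, and 8.0, 8.46 and 8.94 in +/+ shTLS cells, against 8.64, 6.67 and 8.43 in +/+ control cells. In both, -/- control mouse 2 was the highest array and +/+ control mouse 2 the lowest, and probes of such similar genes may bind both transcripts. Mpeg1, a pore-forming protein of macrophages, read 12.24, 10.79 and 9.32 in -/- shTLS cells, against 12.36, 12.26 and 10.44 in -/- control cells, and 10.83, 8.73 and 8.59 in +/+ shTLS cells, against 12.05, 10.02 and 9.65 in +/+ control cells. Its values were lower with shTLS in each of the 6 mice. Slc11a1, the metal transporter of phagosomes, ran from 6.70 to 10.32, and Ctss, the lysosomal protease cathepsin S, from 8.99 to 12.97.

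Most leukocyte genes were high in -/- mice 1 and 2, and mouse 3 was the lowest -/- mouse for 11 of the 12 genes and the lowest +/+ mouse for 10. Ptprc, which encodes CD45 of all white blood cells, read 7.16, 6.78 and 4.91 in -/- shTLS cells, against 8.05, 8.32 and 5.11 in -/- control cells, and 5.64, 4.89 and 4.99 in +/+ shTLS cells, against 6.63, 5.29 and 5.12 in +/+ control cells. Tyrobp, the signalling adaptor DAP12, read 9.96, 8.66 and 7.52 in -/- shTLS cells, against 10.69, 10.46 and 7.61 in -/- control cells, and 8.06, 7.16 and 6.89 in +/+ shTLS cells, against 9.10, 6.70 and 7.19 in +/+ control cells. Cd53, a tetraspanin, read 7.44, 6.03 and 4.53 in -/- shTLS cells, against 8.14, 7.62 and 5.01 in -/- control cells, and 4.61, 5.84 and 4.42 in +/+ shTLS cells, against 6.36, 6.46 and 4.95 in +/+ control cells. The 4 arrays of -/- mice 1 and 2 held the 4 highest values of Ptprc and, apart from shTLS mouse 2 of Tyrobp and Cd53, those of the other 2 genes. Cd74, the invariant chain of MHC class II, read 5.95, 5.71 and 6.00 in -/- shTLS cells, against 6.08, 6.39 and 5.53 in -/- control cells, and 6.59, 5.81 and 5.94 in +/+ shTLS cells, against 4.90, 5.50 and 5.09 in +/+ control cells. It spanned only 1.69 log2 units, and +/+ shTLS mouse 1 was its highest array.

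Of the other leukocyte genes, Cybb, the catalytic subunit of the phagocyte oxidase, ran from 4.62 to 9.39 and Coro1a, an actin-binding coronin, from 6.37 to 9.84. Cd52 ran from 5.38 to 9.49, Fcer1g, the Fc receptor gamma chain, from 6.50 to 9.04, and Laptm5, a lysosomal membrane protein, from 3.58 to 7.45. Lcp1, the actin bundler L-plastin, stood apart: it read 11.45, 12.26 and 11.64 in -/- shTLS cells, against 11.41, 11.71 and 11.96 in -/- control cells, and 11.84, 12.95 and 11.79 in +/+ shTLS cells, against 11.62, 13.44 and 11.94 in +/+ control cells, with +/+ mouse 2 highest and -/- mouse 1 lowest, the reverse of the Kupffer cell genes. Itgam, which encodes CD11b, was above background on 6 arrays, those of -/- mice 1 and 2, +/+ control mouse 1 and +/+ shTLS mouse 2. Spi1, which encodes PU.1, was above background on 1 array, +/+ shTLS mouse 1 at 4.56.

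**Figure D1:**
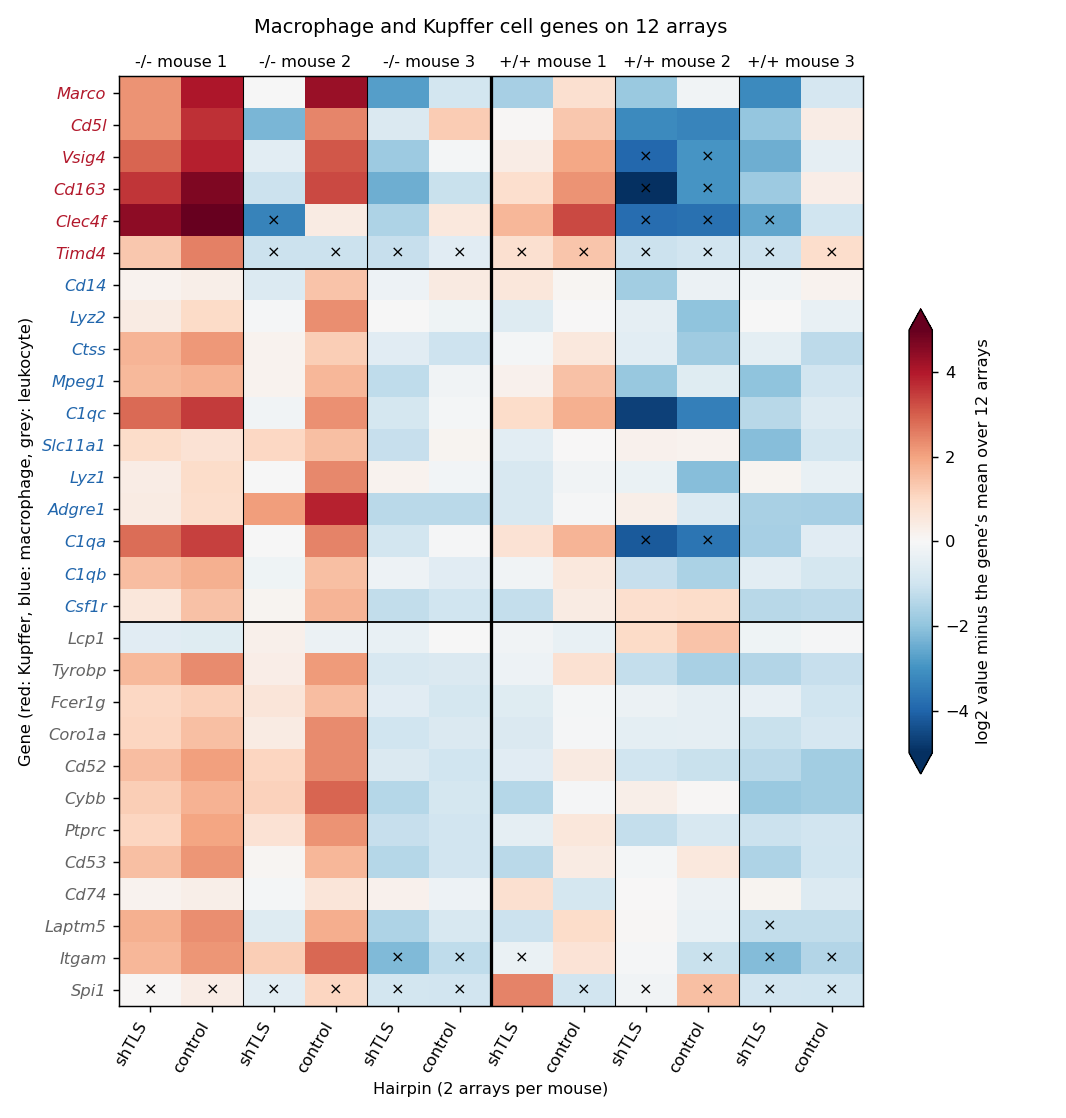
Deviation of the 29 genes with a probe (rows) from their own mean over 12 arrays (columns, 2 per mouse), in log2 units, with the colour scale ending at 5 in both directions and crosses for probes not well above background. Colour follows the mouse more than the hairpin: -/- mouse 1 is high in all 6 Kupffer cell genes, and +/+ mouse 2 is low in them while its leukocyte genes lie on both sides of their means, with Lcp1 above and Tyrobp and Ptprc below.

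Most of the spread lay between mice. Between them lay a median of 84.1% of the variance of the 29 genes, against 59.7% over all 19027 tested genes, and 21 of the 29 genes had a share above 80%, as did 20.1% of all tested genes. This share takes in genotype, with a median of 25.1%, against 5.49% over all tested genes. It also takes in the number shared by mouse, assay and slide (44.4%, against 33.2%). The remaining differences between mice held a median of 11.6%, against 8.88%. The share was 92.6% for C1qc, 92% for Adgre1, 89.2% for Clec4f and 87.6% for Ptprc. It was lowest for Cd74 at 16.3%, followed by Spi1 at 40.4%, Cd14 at 41.5%, Lyz1 at 58.8% and Lyz2 at 59.8%. The spread itself was wide, with a median SD over 12 arrays of 1.29 log2 units in the 29 genes and 0.566 in all tested genes. In RNA of whole cultures, fewer macrophages and less of a transcript per macrophage cannot be told apart.

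**Figure D2:**
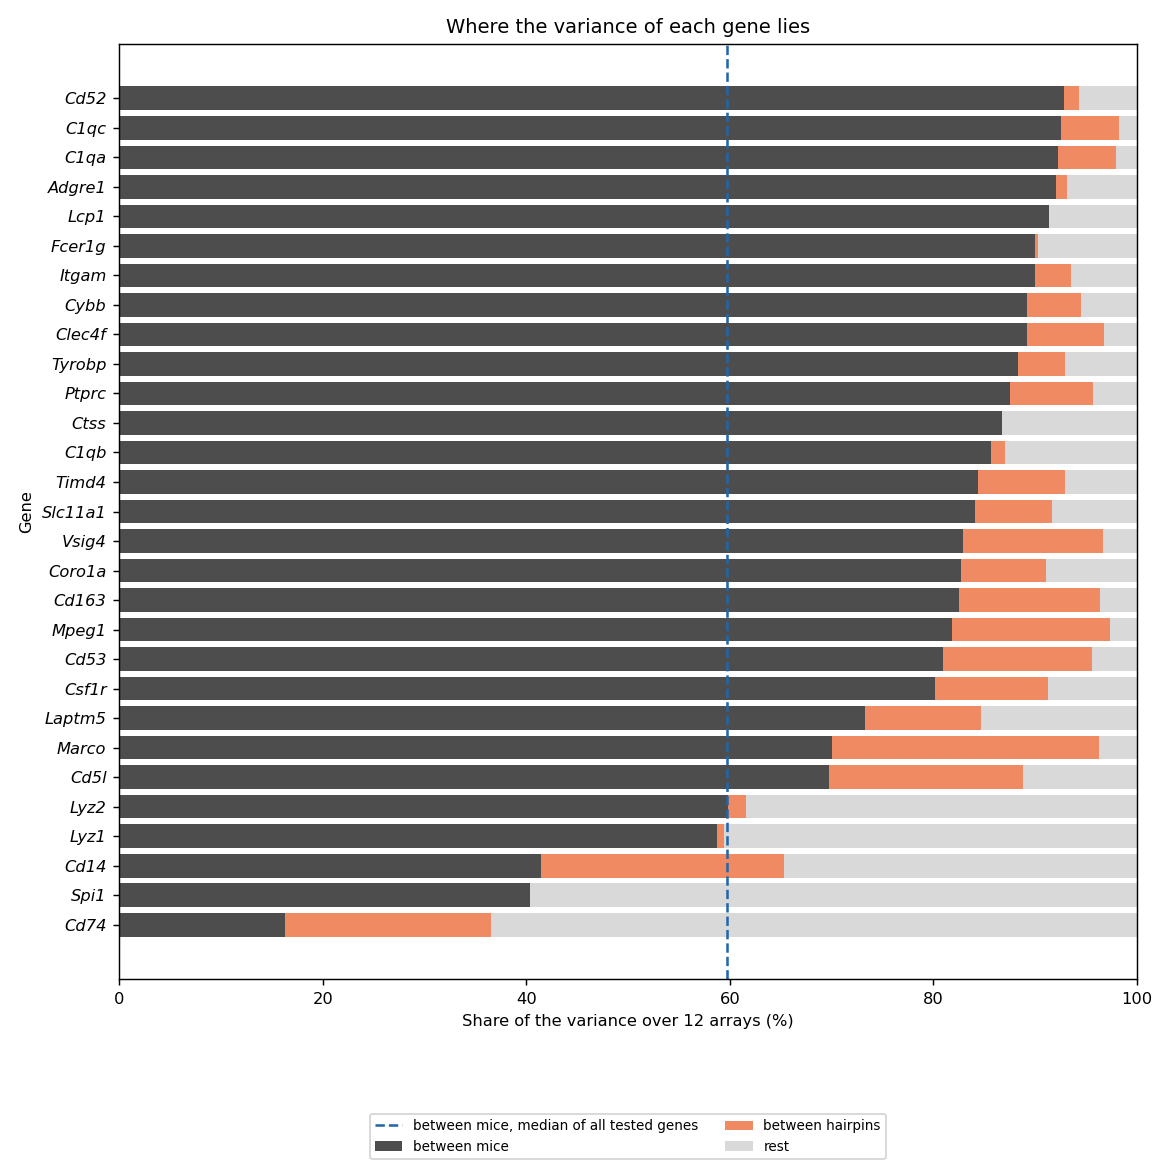
Share of each gene's variance over the 12 arrays (horizontal axis, percent) that lies between the 6 mice, between the hairpins and in the rest. The share between mice takes in genotype and the number shared by mouse, assay and slide. The share between mice exceeds the median of all tested genes, the dashed line at 59.7%, in all but 4 of the 29 genes.

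The Kupffer cell genes and the other genes ranked the mice alike in part. All 6 Kupffer cell genes were highest in mouse 1 of each genotype, taking the mean of both arrays of a mouse. In -/- mice the top mouse was mouse 1 for 6 of 11 macrophage genes and for 6 of 12 leukocyte genes, and mouse 2 for the other 5 and 6. In +/+ mice, mouse 1 was also the top mouse for 6 of 11 macrophage genes and 9 of 12 leukocyte genes. Mouse 2 was the lowest +/+ mouse for 5 of 6 Kupffer cell genes and 7 of 11 macrophage genes, and mouse 3 for 10 of 12 leukocyte genes.

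Averaged over its genes as a deviation from each gene's mean, the Kupffer cell group stood at 2.80 with shTLS and 4.06 with the control hairpin in -/- mouse 1, and at 0.35 and 1.83 in +/+ mouse 1. In +/+ mouse 2 it stood at -3.24 with shTLS and -2.35 with the control hairpin, where the leukocyte group stood at -0.26 and -0.22. The Kupffer cell group minus the leukocyte group was -2.97 with shTLS and -2.12 with the control hairpin there. In -/- mouse 1 this gap had the other sign, at 1.78 with shTLS and 2.60 with the control hairpin. These levels describe the cultures and were not tested.

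**Figure D3:**
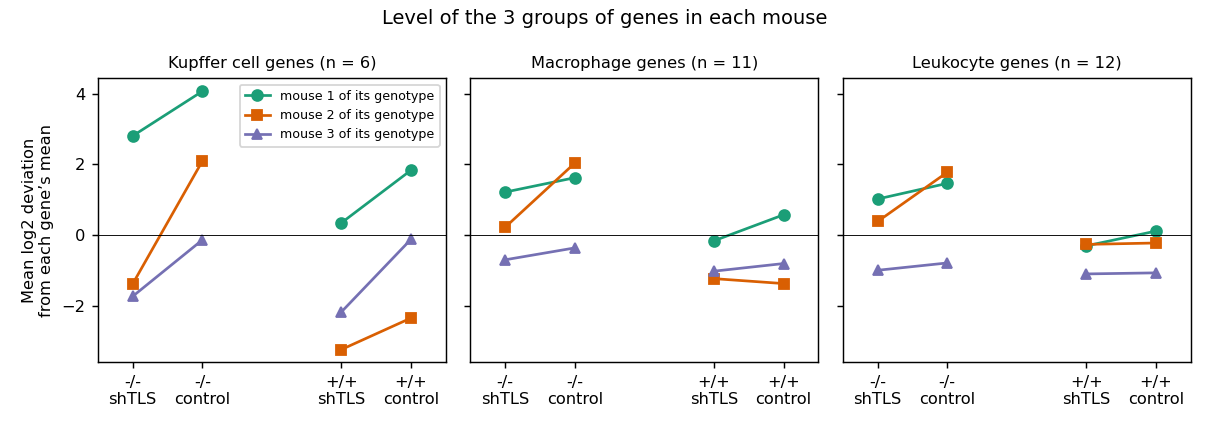
Mean deviation of each group of genes from the genes' own means (vertical axis, log2) for shTLS and control arrays of each mouse, joined by lines. The lines of the Kupffer cell genes slope up towards the control hairpin in all 6 mice, while the leukocyte genes of +/+ mice 2 and 3 are nearly level.

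The comparison of hairpins asked which genes depend on TLS. The test that treats the arrays as independent called 0 of the 26 tested genes in -/- cells, 0 in +/+ cells and 0 averaged over genotypes (limma, adjusted p under 0.05), where it called 0.993%, 1.2% and 8.25% of all tested genes. At an unadjusted p under 0.05 it found 0, 1 and 1 of the genes, which were Cd74 in +/+ cells and Marco in the average, against 12.2%, 16.5% and 28.1% of all tested genes.

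Because both arrays of a mouse share an animal, the same test with the mouse as a block compares hairpins within mice. It called 10 of 26 genes lower with shTLS averaged over genotypes and 0 higher, against 16.0% lower and 16.8% higher of all tested genes. With the number shared by mouse, assay and slide as a block instead, 1 gene was lower in -/- cells (Clec4f, against 1.84% of all tested genes) and 4 in the average (Cd5l, Clec4f, Marco and Mpeg1, against 13.7%). The 10 were the 5 Kupffer cell genes that passed the filter, 3 of 11 tested macrophage genes and 2 of 10 tested leukocyte genes. Clec4f passed the filter only through the -/- control group, and Cd163, Vsig4 and C1qa only through both -/- groups. Marco fell by 2.41 on the log2 scale, or 5.3-fold (SE 0.35, adjusted p = 0.00422), with within-mouse differences of -1.79, -4.32, -1.81 in -/- mice and -2.47, -1.69, -2.36 in +/+ mice. Cd163 fell by 2.18 (SE 0.44, adjusted p = 0.012), with differences of -1.11, -4.39, -1.35 in -/- mice and -1.42, -2.66, -2.15 in +/+ mice. Cd5l fell by 1.93 (SE 0.49, adjusted p = 0.0255) and was not lower in +/+ mouse 2, where it read 6.00 with shTLS and 5.85 with the control hairpin. Vsig4 fell by 1.81 (SE 0.34, adjusted p = 0.00942) and Clec4f by 1.71 (SE 0.37, adjusted p = 0.0153), both lower in 6 of 6 mice, although both Clec4f values of +/+ mouse 2 were at background.

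The macrophage genes called within mice were C1qc, which fell by 1.12, C1qa, which fell by 1.10, and Mpeg1, which fell by 1.05 (adjusted p = 0.0181, 0.0206 and 0.00888). C1qb did not go with the other 2 chains: its difference was -0.25 (SE 0.29), with 3 of 6 mice lower. The leukocyte genes called were Cd53, which fell by 0.95, and Ptprc, which fell by 0.69 (adjusted p = 0.0211 and 0.044). Csf1r (-0.73, adjusted p = 0.0732) and Coro1a (-0.62, adjusted p = 0.092) were lower in 6 of 6 mice without passing the threshold. Adgre1, Lyz1, Lyz2, Fcer1g, Cd52, Ctss and Lcp1 had mean differences between -0.34 and 0.07, and Cd74 one of 0.42 (SE 0.23, adjusted p = 0.192).

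Within single genotypes and with the mouse as a block, Clec4f, Marco and Vsig4 were lower with shTLS in -/- cells (-2.33, -2.64 and -2.10), where 3.14% of all tested genes were called lower. Clec4f was highest in the -/- control group through which alone it passed the filter, so its call is no support. Marco and Mpeg1 were lower in +/+ cells (-2.17 and -1.19), where 7.06% were. The 2 genotypes' effects were compared by the interaction, which called 0 of 26 genes and 0 of all tested genes without and with the mouse as a block (1 and 0 of the 26 genes at an unadjusted p under 0.05, where 0.268% and 1.56% of all tested genes were). Of the groups of 3 arrays, those of shTLS and control cells did not overlap for Cd14 in -/- cells, which was lower (8.85% of all tested genes were), and for Marco and Cd74 in +/+ cells, the first lower (9.26%) and the second higher (10.9%). The within-mouse difference was below 0 in all 6 mice for 11 of the 26 tested genes, against 18.9% of all tested genes. Its median over the genes was -1.87 for the 6 Kupffer cell genes, -0.54 for the 11 macrophage genes, -0.60 for the 12 leukocyte genes and -0.02 for all tested genes.

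-/- mouse 2 had the widest differences, with a median of -4.04 over the Kupffer cell genes, against -1.15 and -1.76 in -/- mice 1 and 3 and -1.50, -0.54 and -2.07 in +/+ mice 1, 2 and 3. Leaving out both arrays of each mouse in turn gave 7 to 9 called genes, and C1qc, Cd163, Clec4f, Marco, Mpeg1 and Vsig4 were among them each time. The filter was not applied anew in these fits. Clec4f had passed it only through the -/- control group, so its calls here are no support. The size depends on the scaling. With arrays scaled to the spike-in controls, the median of all tested genes was itself -0.81 with shTLS, and 25 of the 26 genes were called lower within mice, as were 67.0% of all tested genes. Without the block 4 of 26 were, against 51.4%. Marco then differed by -3.28 and Cd74 by -0.25, so that Cd74 turned its sign, while relative to the median of all genes Marco was lower and Cd74 higher on both scales.

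**Figure D4:**
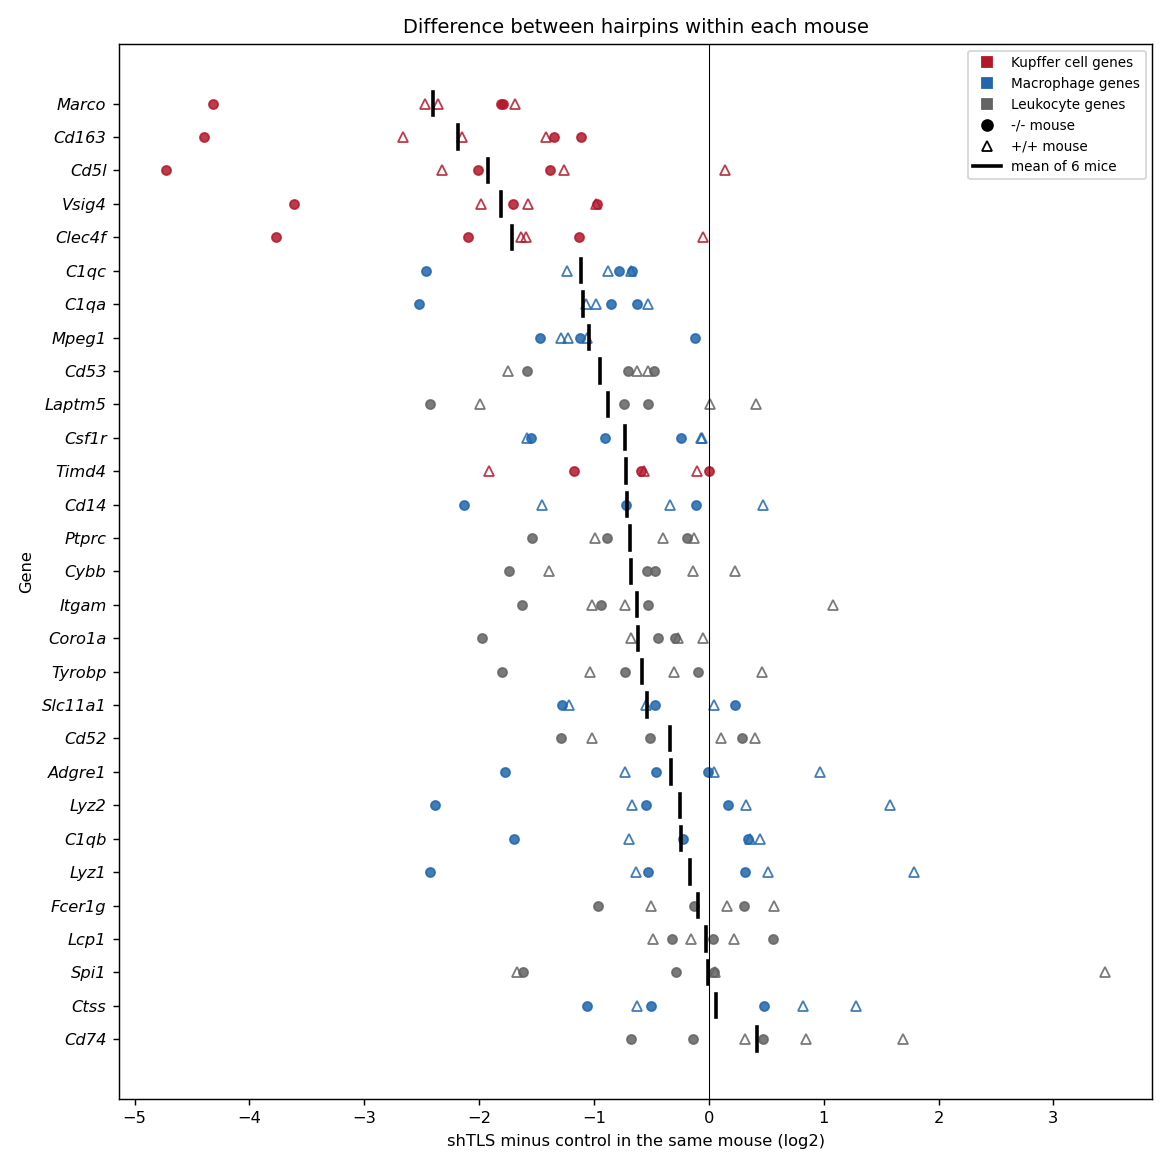
Difference between shTLS and control arrays of the same mouse for each gene (horizontal axis, log2), 1 point per mouse and a bar for the mean of 6 mice. All points of Marco, Cd163, Vsig4 and Clec4f lie at or left of 0, and those of Lyz1, Lyz2 and Ctss lie on both sides.

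The genotype comparison asked what the loss of PGC-1alpha changes, and here no gene of the list passed the test. With the control hairpin, 0 of the 26 genes were called in -/- against +/+ cells, and 0.0893% of all tested genes were. With shTLS, 0 of 26 were called, against 0.0841%. The counts at an unadjusted p under 0.05 were 3 with the control hairpin (Cd74, Lyz1 and Lyz2, all higher in -/- cells) and 0 with shTLS, where 3.3% and 2.12% of all tested genes were. With the mouse as a random block 0 were called in both, against 0.0788% and 0.0893%, and 6 and 0 were found at an unadjusted p under 0.05, against 2.99% and 1.9%. With the replicate block, which pairs -/- and +/+ arrays of the same number, 0 were called in both, and 20 with the control hairpin and 10 with shTLS were higher at an unadjusted p under 0.05, where 8.72% and 6.71% of all tested genes were below it in either direction.

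The point estimates were nonetheless high, with wide errors. The median difference of the 26 genes was 1.65 with the control hairpin and 1.08 with shTLS, and the mean of -/- cells was above that of +/+ cells for 25 genes with the control hairpin and 24 with shTLS. Clec4f, Cd163, Vsig4 and C1qa are among the 26 genes and passed the filter only through -/- groups. Their direction between genotypes is therefore no support. With the control hairpin Cd5l differed by 2.99 (SE 1.39), Vsig4 by 2.80 (SE 1.63), Lyz1 by 1.95 (SE 0.64) and Cd74 by 0.84 (SE 0.31), each with an adjusted p of 0.9999. In 3 of 26 genes, Cd14, Lyz1 and Cd74, the 3 -/- control values all lay above the 3 +/+ control values, against 3.35% of all tested genes. At the same number, the -/- mouse was above the +/+ mouse by a median of 1.69 and 2.15 over the 29 genes for mice 1 and 2, and by 0.19 for mouse 3. This comparison and that of the hairpins in -/- cells share the -/- control arrays.

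Counts in related lists chosen by function stand beside 16.0% of all tested genes lower and 16.8% higher within mice, and a share near these says nothing of a list. Of 11 further genes of Kupffer cells, 5 were called lower with shTLS within mice and 0 higher, namely Cd207 (-1.38, langerin), Folr2 (-1.19, a folate receptor of tissue macrophages), Fcna (-1.05, ficolin A), Slc40a1 and Nr1h3. Spic, which drives the iron-recycling programme of red pulp macrophages, had -1.14 and did not pass (adjusted p = 0.129). Nr1h3 encodes LXR-alpha and Slc40a1 the iron exporter ferroportin, and hepatocytes make both. Of the phagocyte oxidase genes Cyba and Ncf4 were lower, and of 10 scavenger and Toll-like receptor genes 2 (Axl and Mrc1). Of 8 tested transcription factor genes 4 were lower, Runx1 most (-1.17), and Irf8 was higher (0.99). Of 13 tested genes of Fc receptors and their signalling 0 were lower and 1, Plcg2, was higher. Ciita, the master regulator of MHC class II, was higher (2.24), while H2-DMb1 (-1.01) and H2-DMa (-0.77) were lower, and Cd74 is a member of the same pathway.

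On the deposited scale, markers of other cells in the liver moved beside these genes, and their part in the results was not tested. Stellate cell genes were high in mouse 1 of both genotypes: the list of 12 stood at 2.21 with shTLS and 2.34 with the control hairpin in -/- mouse 1, and at 0.57 and 1.10 in +/+ mouse 1. Its summed signal ran from 9553 to 58261 in -/- shTLS cells, against 13024 to 54229 in -/- control cells, and from 10336 to 17405 in +/+ shTLS cells, against 13444 to 22796 in +/+ control cells. With shTLS 0 of 9 tested stellate genes and 0 of 14 endothelial genes were called lower within mice, and Flt1 was the 1 endothelial gene called higher. Of 10 tested hepatocyte genes, Apob (-0.94) and Cebpa (-1.06) were lower within mice, and the median of the list was -0.54, the same as that of the macrophage genes. Of 6 cholangiocyte genes, Krt19 (-2.11), Spp1 (-1.61) and Krt7 (-1.26) were lower.

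Markers of blood cells gave uneven signal. Ccr2 of monocytes, Elane and Retnlg of neutrophils, Cd3d, Cd2, Nkg7, Gzma and Ncr1 of T and NK cells, and Pax5 and Blk of B cells were above background on 0 of 12 arrays. Chil3 and F13a1 of the monocyte list and Cd3e of T cells were above background on all 12 arrays. Cd79b of B cells and Cd4 of T cells were above it on 11. Tests were possible for 4 of 8 monocyte genes, 4 of 10 neutrophil genes, 3 of 10 T and NK cell genes and 2 of 7 B cell genes. Within mice Ly6c1 (-2.44) was lower with shTLS, and Chil3 (0.60), S100a8 (1.57), Cd3e (1.10) and Cd79b (2.39) were higher. Ly6c1 was above background on 9 of 12 arrays. Its lowest values were 2.67 in -/- shTLS mouse 3 and 3.40 and 2.07 in +/+ shTLS mice 1 and 3. No support is drawn from its call.

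**Figure D5:**
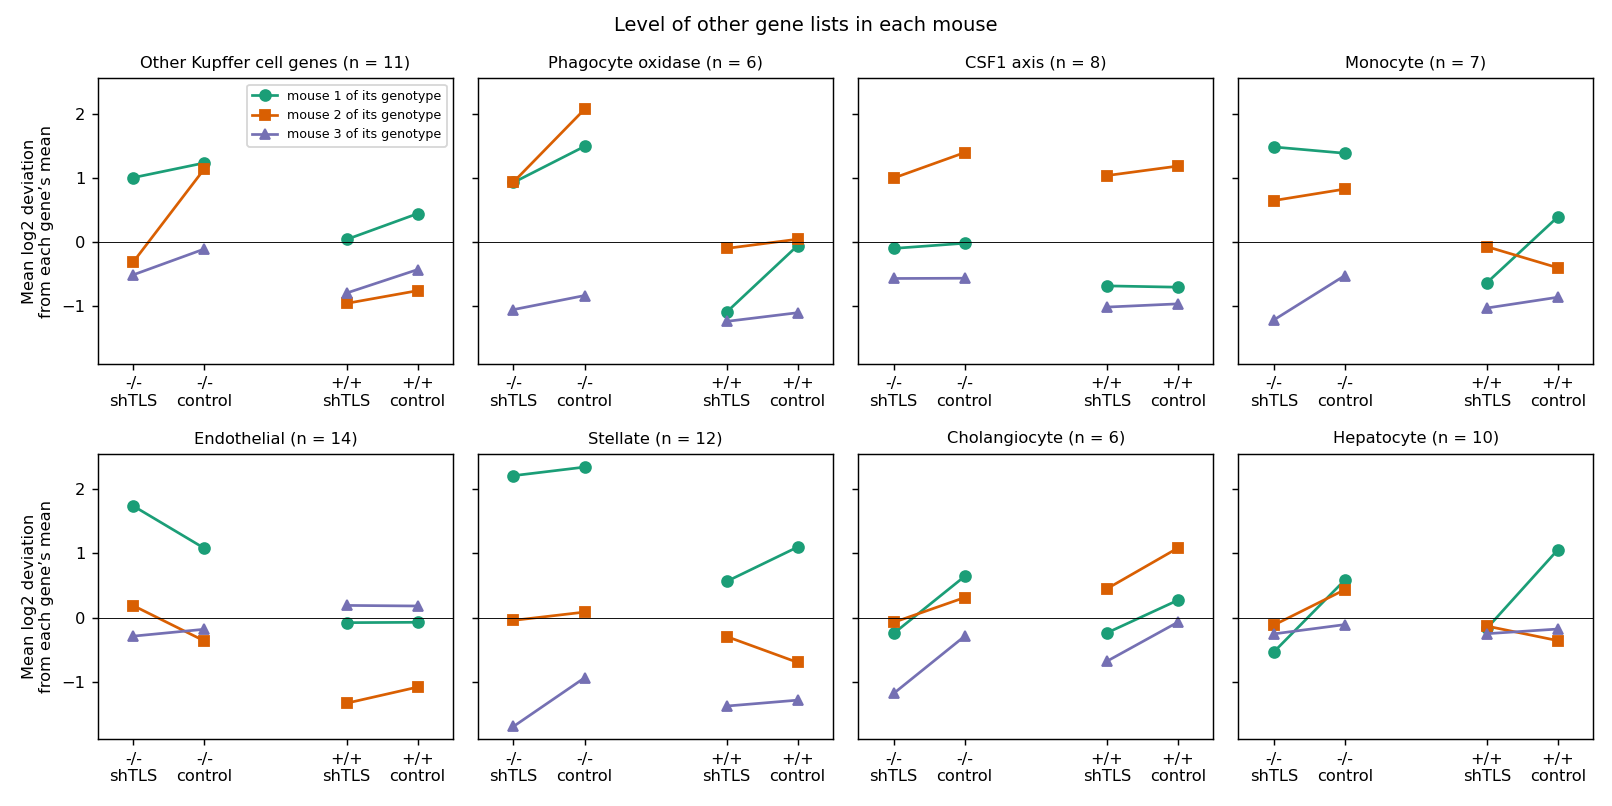
Mean deviation of 8 other gene lists from the genes' own means (vertical axis, log2) for shTLS and control arrays of each mouse. Mouse 1 of each genotype is the highest in the stellate list, mouse 2 of each genotype in the list of CSF1 and related cytokines and receptors, and the endothelial list has its lowest values in +/+ mouse 2.

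The genes of 3 colony-stimulating factors were highest in mouse 2. Csf3, which encodes G-CSF, read 1.53, 7.46 and 2.11 in -/- shTLS cells, against 1.54, 8.57 and 1.45 in -/- control cells, and 1.60, 5.31 and 1.82 in +/+ shTLS cells, against 1.61, 6.10 and 1.57 in +/+ control cells, and was above background only on the 4 arrays of mouse 2. Csf2, which encodes GM-CSF, read 5.33, 7.63 and 4.21 in -/- shTLS cells, against 6.06, 9.04 and 5.11 in -/- control cells, and 3.24, 8.33 and 2.71 in +/+ shTLS cells, against 3.17, 8.19 and 3.55 in +/+ control cells. Csf1 read 11.79, 12.65 and 10.80 in -/- shTLS cells, against 10.86, 12.80 and 10.59 in -/- control cells, and 10.78, 12.89 and 10.65 in +/+ shTLS cells, against 10.70, 13.37 and 10.42 in +/+ control cells. All 3 were highest in mouse 2 of each genotype with each hairpin. Il34, the other ligand of the CSF1 receptor, was not in -/- control cells: it read 10.18, 10.18 and 8.28 in -/- shTLS cells, against 10.18, 9.61 and 9.15 in -/- control cells, and 9.55, 10.44 and 7.02 in +/+ shTLS cells, against 9.55, 11.20 and 7.72 in +/+ control cells. These are the mice in which Kupffer cell genes were lowest (+/+) or differed most between hairpins (-/-), and mouse, assay and slide cannot be told apart.

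Several genes had a further probe, and these mostly repeated the pattern. Over the 12 arrays the correlation with the brightest probe was 0.95 for Cybb, 0.94 for Csf1r, 0.93 for Lyz2 and Laptm5, 0.88 for Lcp1 and 0.87 for Mpeg1, as a description. The dimmest probes of Csf1r and Ptprc were above background on 0 arrays, and another further probe of Ptprc on 3. Coro1a was the exception, since its second probe, above background on all 12 arrays, correlated by 0.40 and had a mean within-mouse difference of 0.93 where the brightest probe had -0.62.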

How the data were processed

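The 12 cultures were each read on 1 array of a 1-colour Agilent design, with 4 arrays on each of 3 slides. Per the labels and the submitters' processing notes, images were read with Agilent Feature Extraction 10.1.1.1, and limma is named without a version. The values used are log2 signals from the authors' deposited table, which were floored at 1 and quantile-normalized in GeneSpring, per the labels of the series. Per the file headers, each array's own file gives for every spot a processed intensity, median intensities and other columns, which flag spots that are above background, outliers or saturated (0 saturated spots). Scanner signals and the deposited values had rank correlations of at least 0.9999 per array.

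The 78 control rows were left out, which leaves 41174 probes. RefSeq accessions gave 24375 probes a symbol of the GRCm38.p6 annotation. The brightest probe of a gene has the highest mean over 12 arrays. A gene was tested if some group had that probe well above background on each of its 3 arrays. The moderated two-sided tests came from limma 3.58.1 (R 4.3.3, statmod 1.5.0). One model of 4 group means, with 8 residual and 2.76 prior degrees of freedom, served all comparisons, and p-values were adjusted after Benjamini-Hochberg over all 19027 genes. A gene was called at an adjusted p under 0.05. The scripts were tested on simulated data.

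Pairing follows the labels, which give both arrays of a mouse. Deviations from the group mean correlated by 0.458 to 0.672 between arrays of a mouse, by 0.235 to 0.642 between genotypes at the same number, and by at most 0.0959 at other numbers. The mouse was therefore also used as a block, fixed for hairpins and random for genotypes (correlation 0.582). No pair of arrays was identical (highest correlation 0.988). The number of arrays limits the precision, and an exact two-sided test of 3 against 3 arrays has 0.1 as its smallest p.

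The genes and lists were chosen with earlier results of these data known. Values on every array are given for the Kupffer cell genes, for main macrophage and leukocyte genes and for called genes. Genes outside the list are given as at most 3 examples by size of difference. Those named beyond that, such as the cytokine genes, Spic, Lcp1 and genes behind small counts, were chosen after their values were seen. Alternatives were values recomputed from the scanner files, 75th percentile and spike-in scaling, normexp with an offset of 50, other filters, probe averages, smaller fits, blocks and leaving out arrays. Normexp used the median signal, since the files used here give no mean signal. Promoters are RefSeq sequence. The level of the hairpin's target and the values of some listed genes are not reported here.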

Additional observations from a re-analysis of the deposited data

How the results depend on the processing

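Of the counts of called genes and their medians, 239 of 257 alternative values kept their direction and side of the threshold, or moved by less than the spread between replicates. The median in +/+ cells changed its sign without +/+ control mouse 1. With the replicate block, which takes the number shared by mouse, assay and slide, 1 gene was called in -/- cells (Clec4f) and 4 averaged over genotypes (Cd5l, Clec4f, Marco and Mpeg1). With the mouse as block these counts were 3 and 10, and 2 in +/+ cells. The calls of Clec4f are no support, since it passed the filter only through the -/- control group. Neither block called a gene of the list between genotypes. With spike-in scaling 4 genes were called in the average (Cd14, Cd5l, Marco and Mpeg1), where 51.4% of all tested genes were called lower, and the median of the 26 genes was -1.64 in -/- cells, -1.22 in +/+ cells and -1.43 in the average, against -0.90, -0.44 and -0.67 in the deposited values. Normexp gave -0.36 in the average. Leaving out 1 array at a time, that median ran from -1.08 (without -/- control mouse 3) to -0.33 (without -/- shTLS mouse 3; -0.36 without -/- control mouse 2) in the average, from -1.79 to -0.28 in -/- cells and from -0.64 to 0.047 in +/+ cells (without that array), and the number called in the average from 0 to 1 (Marco, without -/- control mouse 3). The 10 genes called with the mouse as block became 25 with spike-in scaling and 6 of 21 where a probe had to be above background on all 12 arrays, which leaves out Clec4f, Vsig4, Cd163, C1qa and Laptm5. They were 8 to 10 with the 4 other ways of processing tried, and 7 to 9 without each mouse in turn, all of these chosen after the data were seen. Over all tested genes, the mouse block raised the calls to 1597 in -/- cells, 2976 in +/+ cells and 6236 in the average, and the replicate block to 1181, 2376 and 5511, against 189, 229 and 1569 without a block. Spike-in scaling called 10386 in the average, and a fit of only the groups compared called 48 in +/+ cells. The cause of these moves was not tested. Signal over background limits Timd4, Itgam and Spi1, read above it on 2, 6 and 1 of 12 arrays, and Clec4f, read above it on 8.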

Other observations

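Col1a1, a collagen gene of stellate cells, was highest in mouse 1 of both genotypes. It read 13.70, 10.51 and 7.49 in -/- shTLS cells, against 13.86, 10.68 and 8.87 in -/- control cells, and 10.98, 9.21 and 8.74 in +/+ shTLS cells, against 12.02, 9.87 and 8.90 in +/+ control cells. Col1a1 was chosen after its values were seen.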
